A study of Caenorhabditis elegans with 6 samples.

Results

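Glutathione S-transferases join the tripeptide glutathione to reactive compounds, among them lipid peroxidation products and foreign chemicals, and so make them soluble and easier to export. In *C. elegans* they form a large family whose members are often used as readouts of the oxidative stress response driven by SKN-1, the worm counterpart of mammalian Nrf transcription factors. The genes considered here are *gst-1* to *gst-39*, taken as every gene of the deposited values with a WormBase identifier from WBGene00001749 (*gst-1*) to WBGene00001787 (*gst-39*). Of these 39 identifiers, 36 were present among the 17397 genes of the arrays, and the other 3 were not analysed here.

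The arrays held RNA of whole worms from 3 independently harvested wt (N2) populations and 3 populations of *dcap-1(rf)*, a single outcrossed strain with the *tm3163* reduction-of-function allele of *dcap-1*, the regulatory subunit of the mRNA decapping enzyme. All were 9 days into adulthood at 20 °C, fed UV-killed OP50, with 10 µg/mL FUDR, which stops progeny from growing, in wt as well as in the mutant. Each sample was a pool of 200 to 300 worms on an Affymetrix array of its own. The comparison asks which transcripts differ in mid-aged worms when decapping is impaired.

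Values are RMA values, that is, probe signals that were background-corrected, brought to 1 distribution over the arrays and put on a log2 scale. They carry no detection call, and values of different genes come from different probes, so only the same gene was compared between strains. Array medians lay between 2.18 and 2.24, and Pearson's r between arrays across genes, which are not independent replicates, was 0.990 to 0.997. *dcap-1* itself had values of 5.26 to 5.44 in wt and 4.50 to 4.65 in *dcap-1(rf)* (limma, adjusted p = 0.00469), so the mutant arrays lay below the wt arrays. The labels name a reduction of function and do not say whether the transcript is lower. In whole worms, more cells of a type and more RNA per cell cannot be told apart.

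Names were a limit. The part of the study's tables used here pairs 15 of the 36 identifiers with a gene name, the member rule gives *gst-39*, and the remaining 20 are given by identifier. All of the 15 had log2 fold changes above 0, because the part of the tables used here names mostly genes with a positive change; the family counts below use all identifiers and do not depend on the names. The annotation of WBcel235 places 25 of the 39 *gst* genes on chromosome II, 7 on V, 3 on IV, 2 on X and 1 each on I and III.

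Several *gst* genes were higher in *dcap-1(rf)*, but only *gst-38* passed the test over all genes in the fit used here. It rose 2.29-fold, with *gst-12* at 2.21-fold and *gst-13* at 1.91-fold just outside the threshold. *gst-10*, *gst-24*, *gst-4* and *gst-5*, with known links to oxidative stress, had folds between 1.48 and 1.83 that did not pass. *gst-7* and *gst-1*, also followed for known roles or reporters, differed less, at 1.21-fold and 1.15-fold, and did not pass either. No member was called lower.

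Of the 36 genes, 29 passed the filter that removes the 25% of genes with the lowest average, here those below 1.33. Among these 29, 1 was called by limma at an adjusted p under 0.05 (3.45%), against 1.62% of the 13047 genes tested; it was higher in the mutant, as were 1.46% of all genes by the same rule. For calls in the lower direction the count was 0 of 29, against 0.161% of all genes, and 0 members were lower at an unadjusted limma p under 0.05, against 6.22% of all genes. At an unadjusted p under 0.05, 9 members (31.0%) were higher, where 7.59% of all genes were. The 3 mutant arrays lay above the 3 wt arrays in 9 members (31.0%), where 8.93% of all genes did so, and lay below them in 0, where 9.67% of all genes did. The log2 fold change was above 0 in 23 of the 29 (79.3%), compared with 44.6% of all genes tested. The filter averages both strains. WBGene00001762, with means of 1.27 in wt and 1.47 in *dcap-1(rf)*, was below the cut in wt and passed through its mutant arrays. WBGene00001751, at 1.33 in wt, lay at the cut. Both count among the 23 above 0. Changes beyond 2-fold in either direction fell outside the 95% interval of 23 members (79.3%) and of 97.2% of all genes.

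The median log2 fold change of the tested members was 0.19, with quartiles of 0.03 and 0.41, beside a median of -0.02 and quartiles of -0.11 and 0.08 over all genes tested. Over all 36 members, those below the filter included, the median was 0.11, beside -0.02 over all genes of the arrays. Relative to the wt mean of each gene, the median over the tested members was 0.31 on the first *dcap-1(rf)* replicate, 0.09 on the second and 0.24 on the third. The wt replicates gave -0.01, -0.04 and 0.06. The mutant replicate 2 thus stood only slightly above wt replicate 3, and the medians of all genes tested were between -0.02 and 0.01 on every array.

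**Figure D1:**
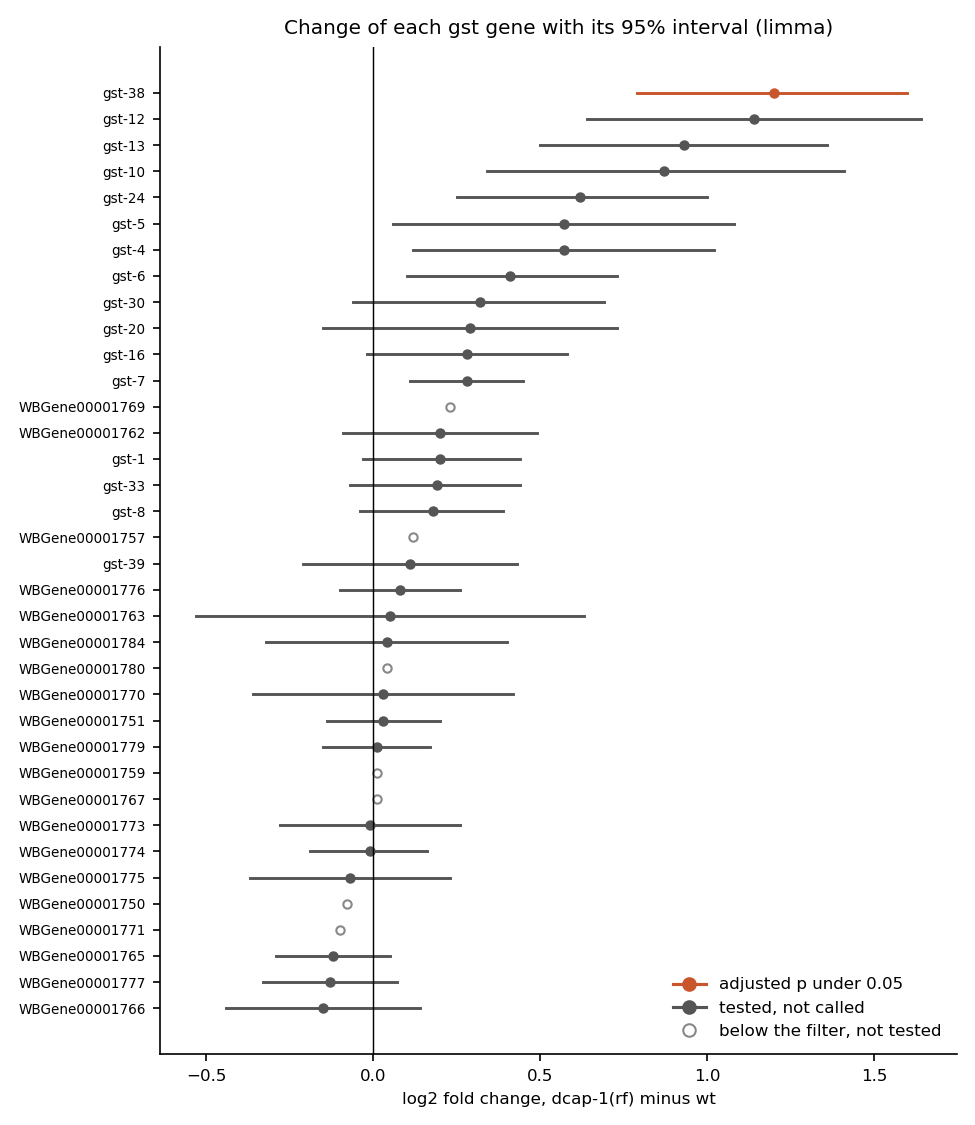
Log2 fold change of each *gst* gene (horizontal axis, *dcap-1(rf)* minus wt) with its 95% interval from limma, ordered by size; open circles are the 7 genes below the filter, which have no interval. Only *gst-38*, at 1.20, was called, and 9 intervals lie wholly above 0, with none wholly below it.

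*gst-38* had the clearest difference of the family. It lies on chromosome V from 15915162 to 15916070, and the study groups it with oogenic, germline-specific transcripts by published expression sets. Its values, in the order of replicates 1 to 3 here and below, were 4.01, 4.19 and 3.80 for wt and 5.58, 5.04 and 4.97 for *dcap-1(rf)*. The lowest mutant array thus lay 0.79 above the highest wt array. The log2 fold change was 1.20 (standard error 0.17), a 2.29-fold rise with a 95% interval from 1.73 to 3.04, and the adjusted p was 0.0164 (limma with Benjamini-Hochberg adjustment). The call needed nearly all arrays: it was lost without wt replicate 1 (adjusted p = 0.0941), wt replicate 2 (0.0653), wt replicate 3 (0.0762) or *dcap-1(rf)* replicate 2 (0.0581), while the log2 fold change stayed between 1.01 and 1.31.

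*gst-12* and *gst-13*, both on chromosome II, from 13616682 to 13618061 and from 9231457 to 9232344, are grouped by the study with transcripts found in soma and germline alike. That grouping covers only genes the study called, so its own fit called both, as well as *gst-38*. The study's methods name surrogate variable analysis, which was not added in the fit here. *gst-12* read 3.15, 2.81 and 2.97 in wt and 4.45, 4.31 and 3.60 in *dcap-1(rf)*. The mutant replicate 3 was well below the other mutant arrays, yet still 0.45 above the highest wt array. This gave a log2 fold change of 1.14 (standard error 0.21) and a fold of 2.21, with a 95% interval from 1.56 to 3.12; with an adjusted p of 0.0507 (limma) it missed the threshold. *gst-13* read 5.39, 5.18 and 5.54 in wt and 6.67, 6.30 and 5.93 in *dcap-1(rf)*. The difference was 0.93 on the log2 scale (standard error 0.18), and its adjusted p was 0.0599 (limma). Here too the groups did not overlap and the mutant replicate 3 was the lowest of its group. Without that array both genes were called, *gst-12* with an adjusted p of 0.00463 and *gst-13* with 0.0171 (limma); neither was when any other array was left out. In the 9 alternatives with all arrays, *gst-12* was called in 7 and *gst-13* in 5, with adjusted p between 0.00854 and 0.0586 and between 0.0279 and 0.0686 (limma).

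**Figure D2:**
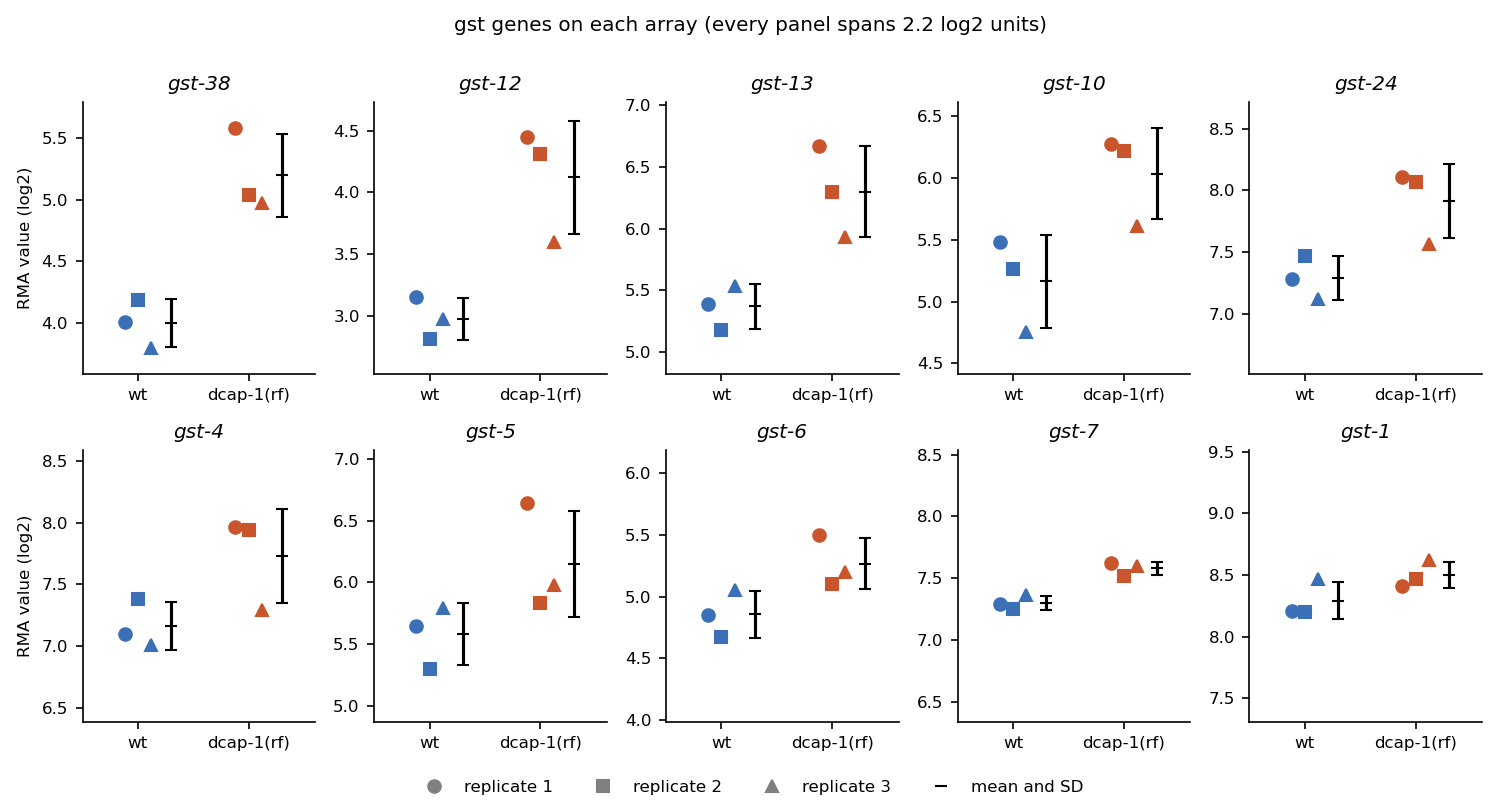
RMA value (log2, vertical axis) of 10 *gst* genes on each array, wt in blue and *dcap-1(rf)* in orange, with the replicate as symbol and the group mean and SD as bars; every panel spans the same range. *gst-38* has the widest gap between the groups (0.79), *gst-4* and *gst-1* overlap, and *dcap-1(rf)* replicate 1 is the highest array in every panel but that of *gst-1*.

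The next members are enzymes tied to lipid peroxidation. GST-10 conjugates 4-hydroxynonenal, a toxic product of oxidised lipids, and its gene lies on chromosome V from 2561690 to 2564645. *gst-10* had values of 5.48, 5.26 and 4.75 in wt and 6.28, 6.22 and 5.61 in *dcap-1(rf)*. Both groups were spread widely (SD 0.38 and 0.37, n = 3 each), and the lowest mutant array was 0.13 above the highest wt array. The log2 fold change of 0.87 (95% interval 0.34 to 1.41) had an adjusted p of 0.149 (limma). *gst-24*, on chromosome II from 13610443 to 13611366, whose loss sensitises worms to oxidative stress, read 7.28, 7.47 and 7.12 in wt and 8.11, 8.07 and 7.57 in *dcap-1(rf)*. The mutant arrays were all higher, by as little as 0.09, and the log2 fold change was 0.62 (95% interval 0.25 to 1.00, limma adjusted p = 0.139). *gst-24* was called without *dcap-1(rf)* replicate 3 (adjusted p = 0.0236, limma), whereas *gst-10* then had an adjusted p of 0.0557 (limma).

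*gst-5*, on chromosome II from 10950352 to 10951603, encodes another enzyme with activity toward 4-hydroxynonenal. It read 5.65, 5.30 and 5.79 in wt and 6.64, 5.83 and 5.98 in *dcap-1(rf)*. Mutant replicate 1 stood apart from the other mutant arrays, which lay close to wt replicate 3. The log2 fold change was 0.57 (95% interval 0.06 to 1.08, limma adjusted p = 0.309) and between 0.33 and 0.73 when 1 array was left out, the lower value without that replicate.

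*gst-4* is the best known gene of the family, since its promoter drives a reporter that lights up when SKN-1 is active. It lies on chromosome IV from 10142225 to 10143099. Its values were 7.10, 7.38 and 7.01 in wt and 7.96, 7.94 and 7.29 in *dcap-1(rf)*. Mutant replicates 1 and 2 were clearly above wt, while mutant replicate 3 lay below wt replicate 2, so the groups overlapped. The log2 fold change of 0.57 (95% interval 0.12 to 1.02) was not called (limma adjusted p = 0.252); without *dcap-1(rf)* replicate 3 it was 0.79 with an adjusted p of 0.0293 (limma).

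*gst-6*, *gst-7* and *gst-8* follow each other on chromosome II from 4879891 to 4884599. *gst-7* showed a small and even difference, from 7.29, 7.25 and 7.36 in wt to 7.62, 7.52 and 7.60 in *dcap-1(rf)*. Its SDs of 0.06 and 0.05 (n = 3 each) were low, and the log2 fold change of 0.28 had a 95% interval from 0.11 to 0.45 (limma adjusted p = 0.139). *gst-6* read 4.85, 4.67 and 5.05 in wt and 5.50, 5.10 and 5.20 in *dcap-1(rf)*, which differ by 0.41 on the log2 scale (95% interval 0.10 to 0.73, limma adjusted p = 0.241). *gst-8*, at 2.43 ± 0.14 in wt and 2.61 ± 0.07 in *dcap-1(rf)* (SD, n = 3 each), overlapped between the strains. Its log2 fold change was 0.18, with a 95% interval from -0.04 to 0.39.

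Of the named members, *gst-20*, *gst-24*, *gst-12* and *gst-16* lie in that order on a second stretch of chromosome II, from 13608154 to 13624440. Members given by identifier have no position here, and some of them may lie in the same stretch. In the same order, the log2 fold changes of the named members there were 0.29, 0.62, 1.14 and 0.28, so they differed in size. *gst-16* read 3.20, 3.28 and 3.28 in wt and 3.81, 3.28 and 3.51 in *dcap-1(rf)*; the groups did not overlap, but the lowest mutant array and the highest wt array were equal at this rounding. *gst-20* overlapped, with 4.35 ± 0.34 in wt and 4.64 ± 0.25 in *dcap-1(rf)* (SD, n = 3 each). Related *gst* genes may share signal through similar sequence, which was not analysed here.

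*gst-1*, on chromosome III from 9059331 to 9060181, encodes a pi-class enzyme. It read 8.21, 8.20 and 8.47 in wt and 8.41, 8.47 and 8.62 in *dcap-1(rf)*, with overlap between the strains. The log2 fold change was 0.20 (95% interval -0.03 to 0.44, limma adjusted p = 0.431), an interval that leaves out any rise beyond 1.36-fold. *gst-30* had a log2 fold change of 0.32 (95% interval -0.06 to 0.69), *gst-33* of 0.19 (-0.07 to 0.44) and *gst-39* of 0.11 (-0.21 to 0.43). The strains overlapped in these genes as well.

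The 13 tested members without a name differed little. Their log2 fold changes ran from -0.15 to 0.20, 7 above and 6 below 0, the strains overlapped in all 13, and the lowest unadjusted limma p was 0.130 (lowest adjusted p 0.506). Their 95% intervals lay between -0.53 and 0.63, so a doubling or halving of any of them was outside its own interval. WBGene00001762 had the highest change of the 13, 0.20, and passed the filter through its mutant arrays. WBGene00001766 had the most negative change of the family, with 2.34, 2.28 and 2.43 in wt and 2.40, 1.94 and 2.27 in *dcap-1(rf)*. Mutant replicate 2 was the lowest array, and the other mutant arrays lay at the level of wt. WBGene00001784, with values well above the array median, read 5.31, 5.53 and 5.92 in wt and 5.77, 5.48 and 5.63 in *dcap-1(rf)*, which differ by 0.04 on the log2 scale (95% interval -0.32 to 0.40).

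The 7 members below the filter had values between 0.60 and 1.75 on all arrays and log2 fold changes from -0.10 to 0.23. When no filter was applied, none was called (lowest unadjusted limma p 0.207, lowest adjusted p 0.606). At such values RMA compresses differences, so little can be read from them. In 8 members, mostly of low value, at least 2 arrays had the same value to the 9 decimals deposited.

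**Figure D3:**
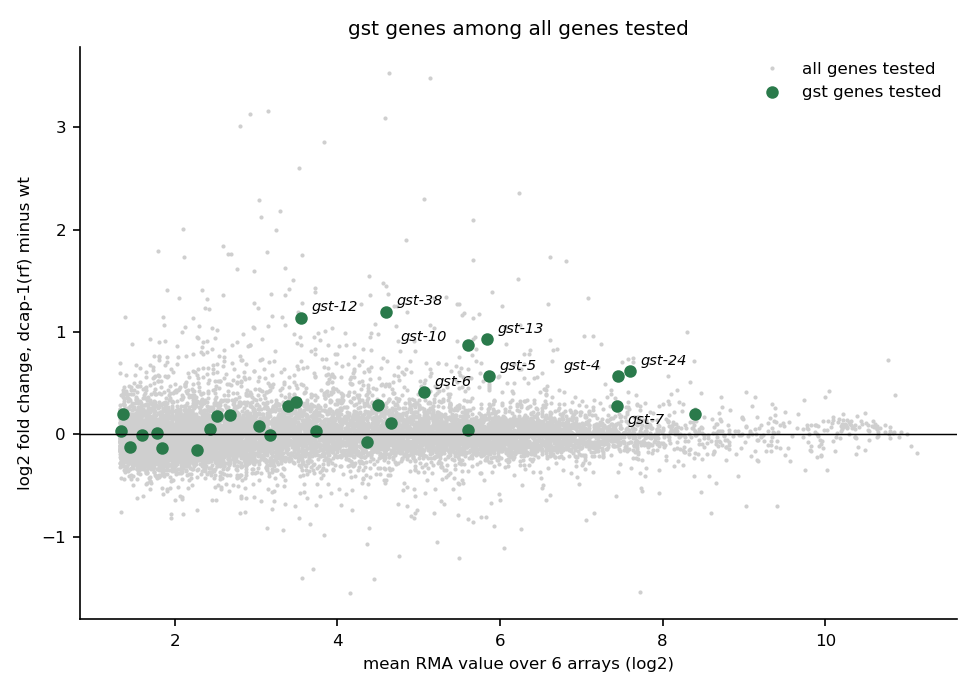
Log2 fold change (vertical axis, *dcap-1(rf)* minus wt) against the mean RMA value over 6 arrays (horizontal axis, log2) for the 29 tested *gst* genes in green and all 13047 genes tested in grey; genes with an unadjusted limma p under 0.05 are named. These 9 all lie above 0, and their means over 6 arrays run from 3.55 for *gst-12* to 7.6 for *gst-24*.

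Arrays of 1 strain differed among themselves in a shared way over the 9 members with an unadjusted p under 0.05. *dcap-1(rf)* replicate 1 was the highest mutant array in 9 of the 9, where it was highest in 32.8% of all genes tested. *dcap-1(rf)* replicate 3 was the lowest mutant array in 6 of the 9 (*gst-4*, *gst-10*, *gst-12*, *gst-13*, *gst-24* and *gst-38*), against 32.6% of all genes, and replicate 2 in the other 3 (*gst-5*, *gst-6* and *gst-7*). In wt, replicate 3 was lowest for *gst-4*, *gst-10*, *gst-24* and *gst-38* and replicate 2 for *gst-5*, *gst-6*, *gst-7*, *gst-12* and *gst-13*. *gst-4*, *gst-10*, *gst-24* and *gst-38* therefore had their lowest value on replicate 3 of both strains, and *gst-5*, *gst-6* and *gst-7* on replicate 2 of both. This ordering was looked at after the values had been seen and was not tested. The median SD between replicates over the tested members was 0.17 in wt and 0.21 in *dcap-1(rf)*, compared with 0.10 and 0.11 over all genes tested.

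**Figure D4:**
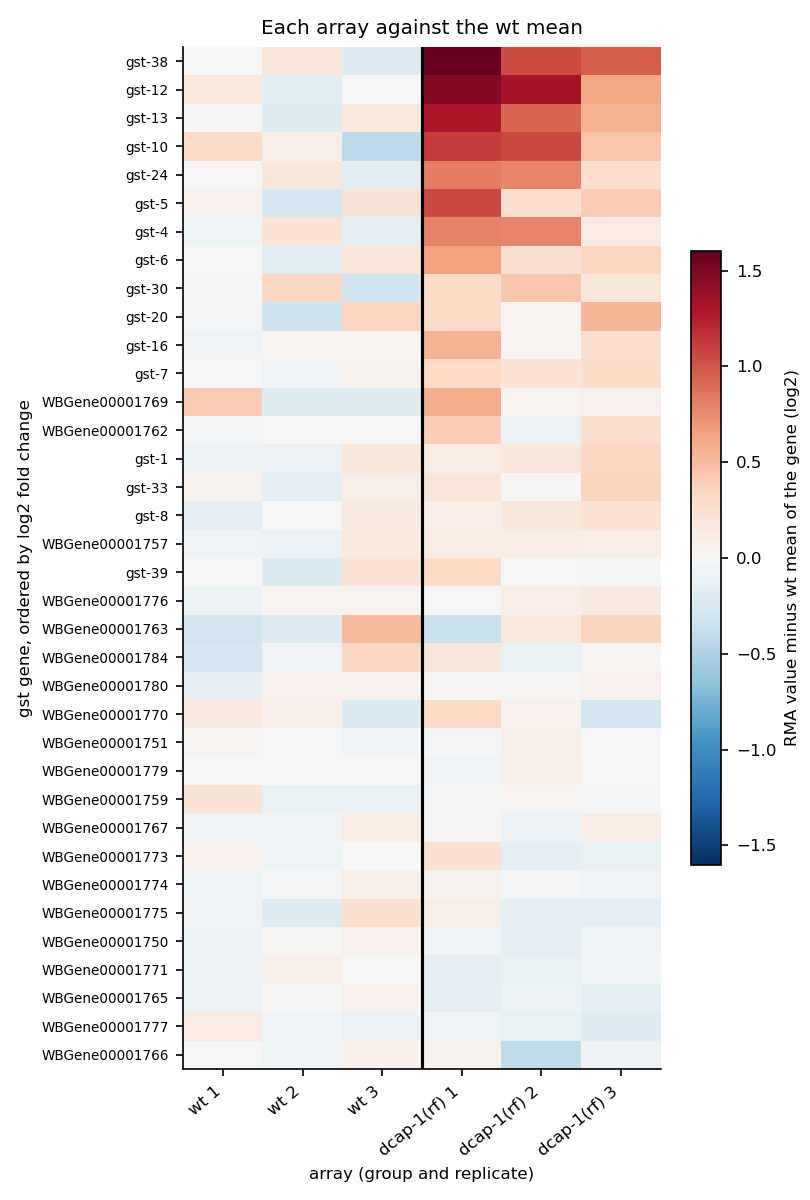
RMA value of each *gst* gene on each array minus the wt mean of that gene (colour, log2; red higher, blue lower), genes ordered by log2 fold change from top to bottom and arrays along the horizontal axis. The upper rows are red on the 3 mutant arrays and deepest on *dcap-1(rf)* replicate 1, while the lower rows stay near white.

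Markers of some tissues differed between the strains too. Of 11 intestinal markers, 6 could be matched to an identifier. Their summed linear signal was 2487 to 2787 on the wt arrays and 3224 to 3614 on the mutant arrays, a rise carried by *asp-1*. Without *asp-1* the sum of the other 5 was 1266.6 to 1391.83 in wt and lower, 1048.58 to 1179.54, in *dcap-1(rf)*, where *vit-3* weighed most; without both it was 139.44 to 154.02 and 189.47 to 214.85. The lysosomal protease gene *asp-1* (log2 fold change 0.73), the proton pump subunit gene *vha-6* (0.64) and the intermediate filament gene *ifb-2* (0.74) were called higher by limma, while *elt-2*, the GATA factor that defines the intestine, had a log2 fold change of 0.20 and *vit-3*, a yolk protein gene, of -0.35, neither called. *gst-38* is grouped with oogenic germline transcripts, and of the 9 oocyte markers 0 could be matched. The 5 sperm markers that could be matched of 45 summed to 29.73 to 38.02 in wt and 240.45 to 318.13 in *dcap-1(rf)*. That rise came through the major sperm protein genes *msp-50* and *msp-76* and through *msd-4*. The other matched sperm markers, *spe-4* (log2 fold change 0.18) and *spe-11* (0.25), overlapped between the strains and were not called. For body wall muscle, 4 of 7 markers were matched, and their sums overlapped (253.99 to 280.17 and 249.98 to 357.09). For neurons 2 of 8 were matched, with 161.45 to 170.08 in wt and 177.33 to 192.67 in *dcap-1(rf)*, and for hypodermis 2 of 7, with 41.24 to 45.62 and 50.03 to 85.64. The neuron sum was mostly *snb-1* (log2 fold change 0.16, limma adjusted p = 0.396). In hypodermis *col-19* had 0.62 (limma adjusted p = 0.166), and *elt-3* overlapped between the strains. No matched muscle, neuron or hypodermis marker was called by limma. Most of these markers were nameable because they were higher, and their part in the *gst* differences was not tested.

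Other genes of glutathione use and detoxification were followed as lists, and the same limit on names applies, so only calls and values of matched genes are given. Of 10 genes in other glutathione S-transferase classes, 3 were matched and 0 were called by limma, with 1 at an unadjusted p under 0.05. That gene, *gst-42*, whose product acts in tyrosine breakdown, read 4.05, 3.85 and 3.70 in wt and 4.31, 4.35 and 4.12 in *dcap-1(rf)*. The groups did not overlap and differed by 0.39 on the log2 scale (limma adjusted p = 0.172). *gpx-1*, a glutathione peroxidase gene and the only match among 15 genes of glutathione synthesis and reduction, had a log2 fold change of 0.35 (limma adjusted p = 0.294). Its groups did not overlap, but the highest wt array and the lowest mutant array were both at 4.86 after rounding.

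Among 15 genes of the SKN-1 pathway and other regulators, 5 were matched and 0 called by limma. The 2 with an unadjusted limma p under 0.05 were *elt-2* (0.0285), also an intestinal marker above, and *sek-1* (0.046). *pqm-1*, a zinc finger factor gene, read 4.96, 5.01 and 5.63 in wt and 5.45, 5.62 and 5.68 in *dcap-1(rf)*. The groups overlapped, with a difference of 0.39 on the log2 scale (limma adjusted p = 0.391). *pmk-1* and *sek-1*, kinases of the p38 cascade, had log2 fold changes of 0.22 and 0.26; *skn-1* itself was not analysed here. Of 16 thioredoxin and peroxide genes, 3 were matched and 0 called by limma, with 0 at an unadjusted p under 0.05.

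Of the other enzyme and transporter families, 10 of 67 UDP-glucuronosyltransferase genes were matched, with *ugt-18* called higher (1.27) and *ugt-53* called lower (-0.78). The call of *ugt-53* did not hold when any 1 array other than wt replicate 1 was dropped (5 of 6 refits), nor with a block for the replicate number. With 50% of genes removed, *ugt-53* fell below the filter and was not tested. Cytochrome P450 genes had 10 of 80 matched and 0 called by limma. *dhs-23* (1.28) was the called gene among 3 matched of 30 short-chain dehydrogenases. *pgp-9* (0.60) was the called gene among 5 matched of 23 ABC transporters of the *pgp* and *mrp* type, which carry conjugates and drugs out of cells; with the third mutant array left out 2 of this list were called, and with any other array left out 0. *mrp-2* of the same list had a log2 fold change of 0.72 (limma adjusted p = 0.114). At an unadjusted limma p under 0.05, 7 matched UDP-glucuronosyltransferases, 3 cytochrome P450 genes, 2 short-chain dehydrogenases and 3 ABC transporters were higher. Over all genes tested the share was 7.59%, and 1.46% were called higher. Matched genes were nameable mostly because they were higher, so the list counts here and above cannot be read against these shares.

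**Figure D5:**
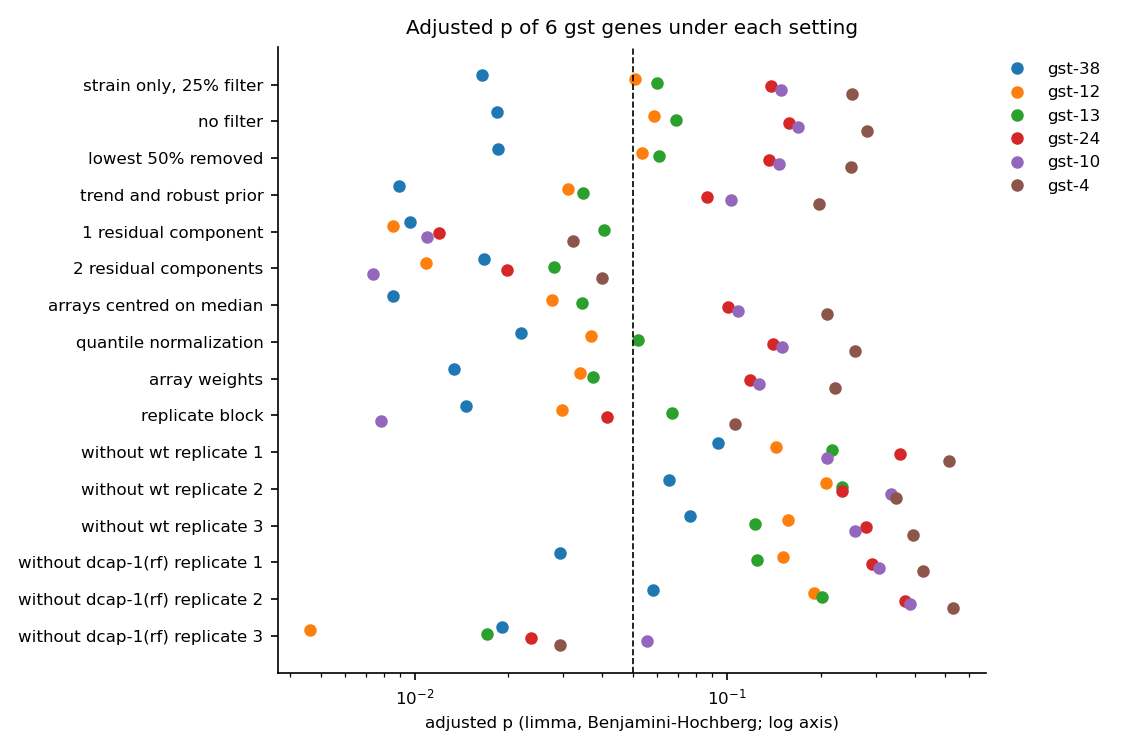
Adjusted p (limma with Benjamini-Hochberg adjustment, log axis) of 6 *gst* genes under the fit with strain only and each alternative, with a dashed line at 0.05. *gst-38* stays left of the line in every fit with all arrays and crosses it in 4 of the 6 fits that leave out an array, and without *dcap-1(rf)* replicate 3 all but *gst-10* lie left of it.

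Which members were called depended on the model. When the first component of the residuals entered the model, 6 were called, namely *gst-4*, *gst-10*, *gst-12*, *gst-13*, *gst-24* and *gst-38*, and the same 6 with 2 components. The share of all genes called was then 2.51% and 3.15%. The components came from the residuals of the strain fit and are uncorrelated with strain by construction. The log2 fold changes of these genes therefore could not change in these fits, and only their standard errors were smaller.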

How the data were processed

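The authors checked array quality on MAS 5.0 values and deposited log2 values made with RMA (default parameters, BrainArray ENSG chip description 21.0.0), 1 per gene and array. Surrogate variable analysis is named in the methods, without saying whether the deposited log2 values carry it. Values were used as deposited.

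The 2 strains were compared in limma (3.58.1; R 4.3.3) by fitting strain alone to all 17397 genes, with removal of the 25% with the lowest average before empirical Bayes moderation (prior degrees of freedom 3.53), and Benjamini-Hochberg adjustment over the 13047 genes left. An adjusted p under 0.05 was a call. Intervals are the unadjusted 95% intervals of this model. Standard errors are moderated, and SDs are between 3 arrays. No depth exists for arrays; their number limits the precision. An exact permutation test of 3 against 3 arrays cannot reach 0.05 and was not used.

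The members and gene lists were chosen with earlier results of these data known. Names came from the identifier and name columns of the study's tables; their fold changes and p-values were not used. Positions came from the RefSeq annotation of WBcel235, matched by symbol. Values on every array are given for members with an unadjusted p under 0.05, for *gst-1*, and for the most negative member; *gst-16*, WBGene00001784 and the genes named from lists without a call were chosen after their values were seen. Linear sums are sums of 2 to the power of the value. Protein identity and promoters were not analysed here. The fit was first tried on simulated arrays with known changes. The marker sums without *asp-1* and *vit-3* were added after seeing the data.

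Alternatives were no filter, removal of 50%, trend and robust prior, 1 or 2 residual components as covariates, median centring, quantile normalization, weighted arrays, a block for the replicate number, and omission of each array. Tables and plots used matplotlib 3.10.9, pandas 2.3.3 and numpy 2.4.6 under Python 3.11.15.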

Additional observations from a re-analysis of the deposited data

How the results depend on the processing

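Of 240 refits of the 16 named *gst* genes under the alternatives, 211 kept both direction and call. Direction could not turn in many of these. With another filter, the trend and robust prior, residual components or the replicate block, the log2 fold change equals that of the strain-only fit by construction. A call was gained in 24 and lost in 4, the latter all of *gst-38* with 1 array left out, and 1 turned direction (*gst-39*, -0.01 without wt replicate 2, in a range up to 0.22 with other arrays left out). The number of members called higher was 1 with strain only, no filter or 50% removed, 3 with a trend and robust prior, 6 with 1 residual component, 6 with 2, 3 with centred arrays, 2 after quantile normalization and 3 with array weights. Calls rose over all genes as well, from 1.62% to 2.05% with the trend and robust prior, 2.51% and 3.15% with 1 and 2 components, 2.06% with centring, 1.95% after quantile normalization and 2.09% with weights. The number of members was 0 to 5 with 1 array left out, 0 when a wt array or the second mutant array was missing and 5 when the third mutant array was; members called lower stayed at 0 in all of these. The median log2 fold change of the members tested with strain only was 0.13 to 0.23. Over all genes, 211 were called with strain only, 328 and 411 with 1 and 2 residual components and 84 to 306 with 1 array left out. The cause of these shifts was not tested. Without detection calls, which low members were above background is not known.

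Same-numbered arrays of the strains had correlated deviations of 0.0552, 0.101 and 0.139. Differently numbered arrays had -0.121 to 0.0447, so that every array correlated best with its own number, which is a hint from the data and not from the design. As 1 of the values was under 0.1 and the labels name no shared batch, the numbers were not taken to pair the populations. With the replicate block 4 members were called (*gst-10*, adjusted p = 0.00779, *gst-12*, *gst-24*, adjusted p = 0.0414, and *gst-38*; limma), beside 1.89% of all genes. UDP-glucuronosyltransferases had 2 higher and 0 lower, and the ABC transporters 0.

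Calls of UDP-glucuronosyltransferases numbered 2 higher with the trend and robust prior, 1 residual component, centred arrays, quantile normalization and array weights. They numbered 3 with 2 components and 1 to 3 with 1 array left out. With 50% removed, *ugt-53* was below the filter and not tested (0 lower). With 1 array left out 0 to 1 were called lower, 1 only without wt replicate 1. The short-chain dehydrogenases had 0 to 1 and the ABC transporters 0 to 2 calls with 1 array left out, the latter 0 in 5 of 6.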
